A study of Saccharomyces cerevisiae with 8 samples.

Results

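The termination profile of 25S rRNA in late 25S-preLSUs carrying MNase-rpL27 was compared with the profile of the same particles without MNase. The members are all 3396 nucleotides labelled as 25S rRNA in the deposited table of Lsg1-TAP particles, out of 10000 template positions of the rDNA region, of which 6766 carry a label. The series holds 8 libraries, 4 of them from 25S-preLSUs, with 1 library per condition, so no difference below could be tested against a spread between replicates. Both libraries came from yeast grown in YPD, with Lsg1-TAP expressed from the chromosome in place of Lsg1 and 2 litres of culture per purification, and both particle preparations were treated with calcium before RNA was extracted. In the MNase-HA-rpL27 strain (Y3405) both chromosomal genes of rpL27, RPL27A (YHR010W) and RPL27B (YDR471W), were replaced by marker genes, and the fusion was supplied as the sole source of rpL27 from the LEU2 plasmid pRPS28_Mnase-HA-rpL27. Markers at these genes were kanMX4 and HIS3MX6, and both strains were of S288c background with his3-1 leu2-0 ura3-0 alleles and URA3kl beside the TAP tag. The control strain (Y3389) carried Lsg1-TAP and its own rpL27 genes, and no MNase. Both strains were clones selected after transformation, and the calcium treatment was shared by both groups, so no library shows the fusion without calcium.

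Micrococcal nuclease (MNase) is a secreted nuclease that needs calcium and cuts single stranded nucleic acids, preferentially next to adenine and thymine or uracil. Fused to a ribosomal protein it is tethered to the binding site of that protein, and cuts exposed rRNA within its reach once calcium is added. RpL27 (eL27) is a protein of the large subunit surface whose main rRNA contacts are in domain III. Lsg1 is a cytoplasmic GTPase that joins late precursors of the large subunit, in which the 25S rRNA is fully trimmed, and is also found on free mature subunits. A cut leaves a new 5’ end at which reverse transcriptase stops, and the share of the cDNA fragments over a nucleotide whose end lies on it is the termination to coverage ratio (TCR). Values are given in percent, either for a single nucleotide or for a window, which is the probability of a stop at the nucleotide or either direct neighbour. The local noise is the authors' estimate from simulated random stops and is listed for each nucleotide. It is the highest simulated TCR in a short stretch around the nucleotide, over all simulations of the purification. It is therefore an upper extreme, and is shared by all 4 libraries of the purification. Coverage is not listed and was not worked out from the values here, so no depth or interval is given. Values in thinly covered stretches may rest on few fragments.

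Positions are counted from the 5’ end of 25S rRNA. The gene RDN25-1 lies on the reverse strand of chromosome XII of the R64 genome, from 451786 to 455181, and is a non-coding rRNA gene. The reads of its repeated copies cannot be told apart, so coordinates stand for the first annotated copy. No genome or rRNA sequence was used here, so bases are given only where the study names them.

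The library without MNase held the most stops of the 4 libraries of this purification. Stops that need no nuclease give a measure of how far 2 libraries differ. At the 5’ end of 25S rRNA the window TCR was 92.8% with MNase-rpL27 and 92.7% without MNase. It was 97.9% and 95.9% at m1A645, 86.1% and 87.1% at m1A2142, and 36.8% and 41.4% at m3U2843, in the same order. At m1A2142 MNase-rpL5 had 93.95% and MNase-rpL35 92.4%, so that MNase-rpL27 was nearer to no MNase there. At m3U2634 the values were 83.98% with MNase-rpL27 and 48.7% without MNase, while MNase-rpL5 had 89.99% and MNase-rpL35 89.5%. The 35.2 percentage points at m3U2634 are the largest gap at these 5 stops and serve below as a yardstick. Stops that were high without MNase, described further on, reached a wider gap of -50.8 points at nucleotide 983. Outside 2 nucleotides around these stops, 145 of 3373 positions exceeded the noise with MNase-rpL27 and 269 without MNase. The other fusions had 166 (MNase-rpL5) and 218 (MNase-rpL35), the latter nearer to no MNase than to MNase-rpL27. With a minimum window TCR of 15% and over 5 times the noise, 10 separate stops were found with MNase-rpL27 and 28 without MNase, while MNase-rpL5 had 11 and MNase-rpL35 had 16.

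Stops with MNase-rpL27 were few and strong. A site was called where the window TCR reached 15% and exceeded both the noise and the window without MNase by a factor of 5, more than 2 nucleotides from the stops that need no nuclease. In 25S rRNA 26 positions passed, which is 0.771% of those tested, and joined to 6 sites with their highest stops at U250, 479, A1559, U1568, U2068 and A2089. For comparison, 0.611% of the 1800 positions of co-purified 18S rRNA passed the same thresholds, with no distance criterion applied there. When the libraries were exchanged, so that the library without MNase had to exceed MNase-rpL27, 1.27% of the 25S rRNA positions passed. The number of positions called with the fusion was thus below the number called in the exchanged direction. The ratio of the 6 sites over the library without MNase ranged from 11.7 to 168.6, and the inverse ratio of the 16 stops of the exchanged direction from 5.16 to 24.3. With the library without MNase set aside and the noise as the only criterion, 10 stops passed, and with the library without MNase of the earlier 27SB-preLSUs as background 7. With MNase-rpL5 as background 5 stops passed, at 248, 479, 1567, A1571 and U2068, so that A1559 and A2089 were lost. With MNase-rpL35 as background only U2068 passed.

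**Figure D1:**
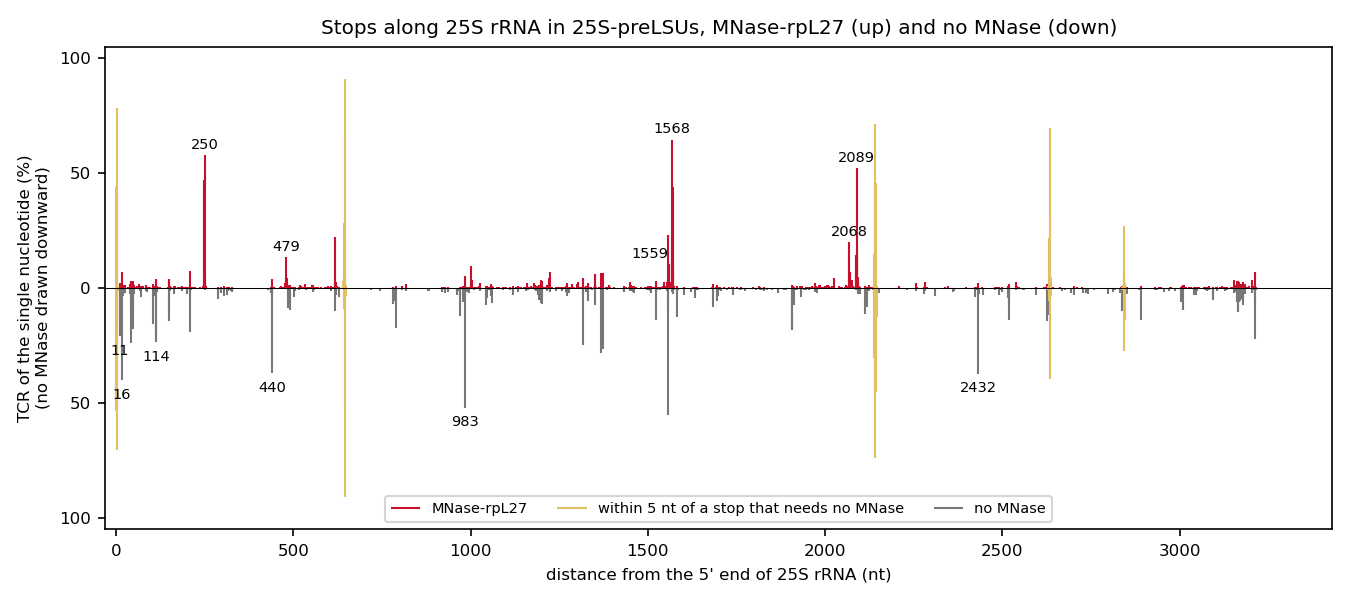
TCR of each single nucleotide of 25S rRNA in percent, with MNase-rpL27 drawn upward and no MNase downward, against the distance from the 5’ end and with nucleotides within 5 of a stop that needs no nuclease in yellow. The sites at U250, U1568 and A2089 reach 57.8%, 64.7% and 52.4% upward with almost nothing below them, while 983 and 440 reach 52.1% and 36.9% downward.

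The strongest site lay in the internal loop between helices 16 and 17 in domain I, from nucleotide 248 to U250 (chromosome XII, 454932). With MNase-rpL27, single nucleotides had a TCR of 46.97% at 248, 44.9% at U249 and 57.8% at U250. The step on either side was sharp, with 1.86% at 247 and 6.48% at 251. Without MNase the 3 nucleotides had 0.0911%, 0.0946% and 0.120%. Reverse transcription thus stopped at 3 neighbouring nucleotides rather than at 1, and the probability of a stop anywhere from 246 to 252 was 89.1% with MNase-rpL27. It was 1.36% without MNase, 73.97% with MNase-rpL35 and 22.05% with MNase-rpL5. The window centred on U250 was 168.6 times, and that centred on U249 287.1 times, the library without MNase. The shape differed between fusions, since MNase-rpL5 had 2.74%, 4.29% and 13.4% at the 3 nucleotides, with most of its stops at U250. MNase-rpL35 had 38.6%, 27.3% and 34.9%, as broad as with MNase-rpL27.

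In domain III, expansion segment 19 (ES19) carried stops at 2 nucleotides that the rule joined to 1 site. U1568 (chromosome XII, 453614) had a single-nucleotide TCR of 64.7% with MNase-rpL27 and 1.58% without MNase. A1571 (453611) had 43.9% and 2.77%. Between these peaks, nucleotide 1569 had 13.1% and 1570 had 5.44%, so the stops form a double peak with a low saddle. On the 5’ side, 1567 had 12.4% and 1566 had 2.55%. Across the whole stretch from 1565 to 1573, the probability of a stop was 87.6% with MNase-rpL27, 78.4% with MNase-rpL35, 25.4% with MNase-rpL5 and 6.54% without MNase. The balance of the 2 peaks differed between the fusions. At A1571, MNase-rpL35 had 44.2%, level with MNase-rpL27, while at U1568 it had 44.4% against 64.7%. At nucleotide 1567 the single-nucleotide TCR was 3.35% with MNase-rpL35 and 3.15% with MNase-rpL5. The window at 1566 was 15.5% with MNase-rpL27, 3.52 times that of the next fusion.

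A weaker site of ES19 at A1559 (chromosome XII, 453623) just passed the minimum, with a window TCR of 15.1% with MNase-rpL27 and 1.29% without MNase. MNase-rpL5 had 15.6% and MNase-rpL35 17.5%, so the 3 fusions gave nearly equal values there. A stop at nucleotide 1556, 3 nucleotides away, was present in all 4 libraries and was highest without MNase. Its single-nucleotide TCR was 55.2% without MNase, 42.9% with MNase-rpL35, 26.8% with MNase-rpL5 and 22.9% with MNase-rpL27. The site at A1559 had the lowest ratio of the 6, at 11.7.

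In expansion segment 27 (ES27), a mobile arm of the large subunit rRNA, 2 sites lay 21 nucleotides apart. At A2089 (chromosome XII, 453093) the single-nucleotide TCR was 52.4% with MNase-rpL27, 24.7% with MNase-rpL35, 10.2% with MNase-rpL5 and 0.360% without MNase. Stops spread over its neighbours, with 14.2% at 2087, 7.69% at 2088, 16.2% at 2090 and 13.2% at 2091 with MNase-rpL27. From 2085 to 2093, the probability of a stop was 74.9% with MNase-rpL27 and 6.30% without MNase. At U2068 (453114), single-nucleotide values with MNase-rpL27 were 12.3% at U2067, 20.2% at U2068, 7.17% at 2069, 5.70% at 2070 and 2.84% at 2071. MNase-rpL35 did not exceed 2.88% and MNase-rpL5 not 1.45% at any of these 5 nucleotides, and the library without MNase not 0.298%. The window at U2068 was 35.02% with MNase-rpL27 and 6.91% with MNase-rpL35, a ratio of 5.07, and 9.57 times that of MNase-rpL5. Of the 6 sites, this one had the highest ratio over the next fusion, and at A2089 the ratio was 1.99. With 1 library per fusion these ratios are descriptions, and how active the nuclease was in each preparation was not measured.

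The remaining site, nucleotide 479 (chromosome XII, 454703), is not among the positions the study discusses. Its single-nucleotide TCR was 13.4% with MNase-rpL27, 3.45% with MNase-rpL35, 0.417% with MNase-rpL5 and 0.190% without MNase. The window had 16.9%, 6.74%, 0.417% and 0.190% in the same order. A second, smaller stop followed at 481, with 4.59% with MNase-rpL27 and 0.566% without MNase. Noise at 479, at 3.05%, was the highest of the 6 sites, so the window was only 5.55 times the noise. In the 200 nucleotides from 401 to 600, 121 positions are listed at 0 with MNase-rpL27 and 132 without MNase, more than in any other segment upstream of the last. With the stop nucleotide alone the site falls below the minimum of 15%, and it counts as a weaker stop.

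**Figure D2:**
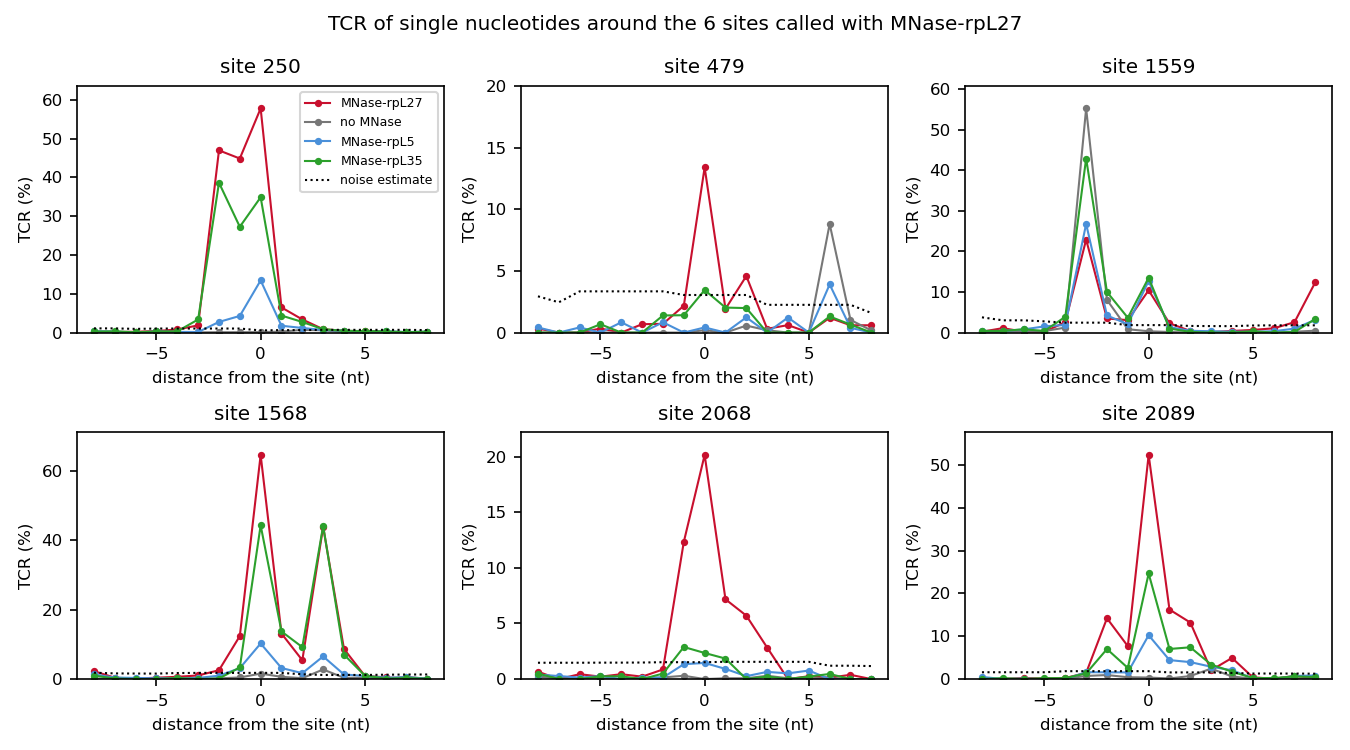
TCR of single nucleotides in percent against the distance from each of the 6 sites, for the 4 libraries of 25S-preLSUs, with the noise estimate as a dotted line. The panel of site U250 shows 3 adjacent high nucleotides, that of site U1568 a double peak, and that of site A1559 the neighbouring stop that is highest without MNase, at 55.2%.

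Against the yardstick of 35.2 percentage points, the gap between MNase-rpL27 and no MNase was larger at U250 (77.8 points), U1568 (70.4 points) and A2089 (62.2 points), and these 3 were also beyond the size of the gap at 983. It was smaller at U2068 (34.6 points), 479 (16.7 points) and A1559 (13.9 points). The yardstick was taken at a stop that is high in both libraries. Without MNase, the windows at U2068, 479 and A1559 were only 0.372%, 0.190% and 1.29%. Point gaps at such unlike levels are not directly comparable, so a smaller gap does not place these sites within ordinary differences between libraries. MNase-rpL27 had the highest window of the 3 fusions at 5 of the 6 sites, all but A1559. MNase-rpL35 exceeded MNase-rpL5 at all 6, but also at 14 of the 16 stops of the exchanged direction. At the 10 weaker stops described below it did so at 5. The share over all positions was not counted, so this order is not particular to the 6 sites. The median window TCR of the 6 sites was 49.1% with MNase-rpL27, 24.6% with MNase-rpL35, 15.6% with MNase-rpL5 and 0.699% without MNase. The sites were chosen for a high window with MNase-rpL27, which favours its rank and its median, so both are descriptions.

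Below the minimum of 15%, weaker stops were called at a window TCR of at least 2%, with the highest nucleotide above its noise and a factor of 5 over the window without MNase. These passed at 0.919% of positions and joined to 10 stops, against 3.79% of positions and 49 stops in the exchanged direction. At 8 of the 10, the next fusion was within 2-fold of MNase-rpL27, and at 5 both fusions were. The 8 include 2072, which is the edge of the site at U2068. How often the fusions lie within 2-fold over all positions was not counted, so these counts are descriptions.

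The highest was G1001 (chromosome XII, 454181) in helix 38, with a window of 11.4% with MNase-rpL27, 45.6% with MNase-rpL5, 6.41% with MNase-rpL35, but only 0.477% without MNase. Helix 38 starts near the central protuberance, where rpL5 binds together with 5S rRNA. Taken singly, G1001, 1002 and 1003 had 9.73%, 1.71% and 3.33% with MNase-rpL27 against 40.4%, 7.49% and 13.5% with MNase-rpL5, with the order of the 3 kept. MNase-rpL5 was 4.01 times MNase-rpL27 at the window centred on G1001.

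Nucleotide 1223 (chromosome XII, 453959) had a window of 7.58% with MNase-rpL27, 6.15% with MNase-rpL5, 3.30% with MNase-rpL35, against 0.985% without MNase. At 2024 (453158) the values were 4.99%, 7.52%, 7.16% and 0.604% in the same order. At 1302 (453880) they were 4.71%, 4.50%, 4.92% and 0.502%. All 3 fusions were above the library without MNase at these positions, and MNase-rpL27 was the highest of them only at 1223. The stop at 2024 is not called when the higher window of both libraries without MNase is the background, since that of 27SB-preLSUs had 38.9% there.

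At 617 (chromosome XII, 454565) the fusions had 4.41%, 3.997% and 4.97% for MNase-rpL27, MNase-rpL5 and MNase-rpL35, and the library without MNase is listed at 0. This position lies beside a stop at 619 that all libraries share, with single-nucleotide values of 22.2% with MNase-rpL27 and 9.92% without MNase. Windows of 3.95% at 1545 (453637), 2.84% at 64 (455118) and 2.41% at 1287 (453895) with MNase-rpL27 were the lowest of those away from a site. Their values without MNase were 0.656%, 0.459% and 0.336%, while MNase-rpL35 had 4.25%, 3.30% and 2.22%.

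Of the weaker stops, nucleotide 2077 (chromosome XII, 453105) was the only one at whose named nucleotide MNase-rpL27 was over 2 times both other fusions, while the stop named 1223 also held such a window at 1220. It lies between the 2 sites of ES27. Its single-nucleotide TCR was 3.46% with MNase-rpL27, 0.635% with MNase-rpL5, 0.455% with MNase-rpL35, against 0.148% without MNase, with a noise estimate of 1.17%. The window of 4.17% was 6.13 times that of the next fusion, MNase-rpL35. That window was 0.680%, below the noise estimate, so the ratio rests on a very small value. The stop listed at 2072 is the edge of the site at U2068, since nucleotide 2072 itself is listed at 0 with MNase-rpL27 and the window takes its value from 2071.

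When the library without MNase was set aside and MNase-rpL27 was required to exceed both other fusions instead, 2 stops passed at a factor of 5, at U2068 and 2077. At a factor of 3 nucleotide 1566, the 5’ edge of the U1568 site, joined them. At a factor of 2, 8 stops passed, which added 479, 1220, 2087, 2094 and A2540. Nucleotide 1220 belongs to the weaker stop named 1223, with 7.53% with MNase-rpL27, 3.19% with MNase-rpL5 and 3.11% with MNase-rpL35, and 2087 and 2094 are within and beside the A2089 site. A2540 (chromosome XII, 452642) lies in helix b of expansion segment 31 in domain V. Its window was 3.47% with MNase-rpL27, 1.53% with MNase-rpL35, 0.275% with MNase-rpL5 and 0.811% without MNase, 11.9 times the noise but only 4.28 times the library without MNase. Its stops extended to the 3’ side, with single-nucleotide values of 2.67% at A2540, 0.772% at 2541 and 0.475% at 2542 with MNase-rpL27.

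**Figure D3:**
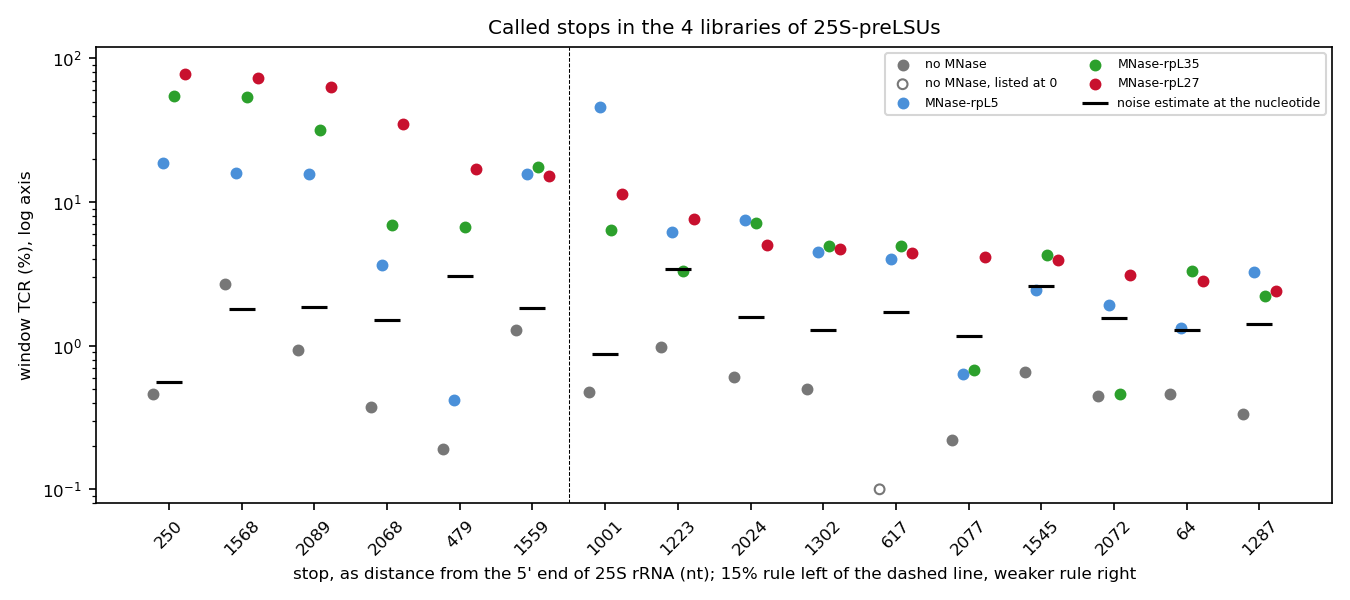
Window TCR in percent on a log axis for the 6 sites and 10 weaker stops in the 4 libraries of 25S-preLSUs, ordered by MNase-rpL27, with the noise estimate of the nucleotide as a black bar. The points of the fusions separate at U2068 and 2077 and lie close together at A1559, 1302 and 617, where the open symbol marks a value listed at 0.

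Besides A2540, 4 positions that the study discusses passed neither rule with MNase-rpL27. At U1764 (chromosome XII, 453418) in domain III, the window was 0.631% with MNase-rpL27 and 0.669% without MNase, both below the noise of 1.08%, while MNase-rpL35 had 29.4%. At U2570 (452612) in helix c of ES31, MNase-rpL27 had 0.199% and the library without MNase 0.494%. At A2640 (452542) in helix 81 the values were 0.599% and 0.426%, and at A2643 (452539) 0.426% and 0.424%. Short cDNAs were removed by a size cutoff before sequencing, and stops that give only such cDNAs are not in these values. The study names the U2570 and A2540 regions among the sites for which MNase-rpL27 showed a higher preference. It also reports that some cleavage sites were found only by targeted primer extension because of the cutoff. Whether U2570 is among them was not tested here. Its low value therefore does not show that MNase-rpL27 leaves it uncut.

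The exchanged direction held the larger number of stops. The 16 stops that the 15% rule found without MNase had a median window of 30.5% there, 10.9% with MNase-rpL35, 6.33% with MNase-rpL5 and 3.35% with MNase-rpL27. The library without MNase was the highest of the 4 at all 16, and MNase-rpL35 lay between it and MNase-rpL27 at all 16. These stops were chosen for a high value without MNase and a low one with MNase-rpL27, which favours this order. The highest was nucleotide 983 (chromosome XII, 454199), with 56.3% without MNase, 26.5% with MNase-rpL35, 6.54% with MNase-rpL5 and 5.50% with MNase-rpL27. At nucleotide 16 (455166) the values were 43.2%, 15.8%, 6.99% and 8.38% in the same order, and at 114 (455068) 40.3%, 16.3%, 14.1% and 6.93%. Of the 16 stops, 5 fell in the first 200 nucleotides. A gap beyond the yardstick was reached at 983, with MNase-rpL27 minus no MNase at -50.8 points, at 2432 with -37.0 points and at 440 with -35.7 points. In the library without MNase the windows at the 6 sites were 0.190% to 2.68%.

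**Figure D4:**
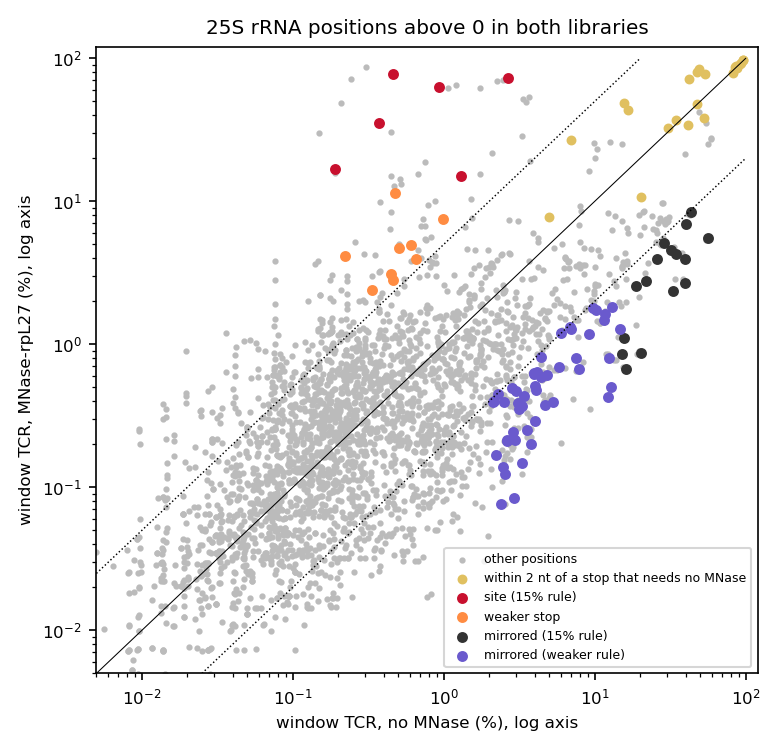
Window TCR in percent with MNase-rpL27 against no MNase, both on log axes, for 25S rRNA positions above 0 in both libraries, with a solid line of equal values and dotted lines at a factor of 5. The 6 sites lie above the upper dotted line, at 11.7 to 168.6 times the library without MNase. The stops of the library without MNase form a larger group below the lower dotted line.

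The concentration of stops was described by the stop hazard, the negative natural logarithm of 1 minus the TCR, summed over the 3373 positions away from the stops that need no nuclease. The sum was 14.3 with MNase-rpL27, 18.3 without MNase, 11.8 with MNase-rpL5 and 17.6 with MNase-rpL35, so the total was not higher with MNase-rpL27 than without MNase. The 6 sites with their flanking nucleotides cover 38 positions, or 1.13%, and held 46.2% of the sum with MNase-rpL27. They held 0.944% without MNase, 9.05% with MNase-rpL5 and 21.9% with MNase-rpL35. These positions were chosen for their excess with MNase-rpL27 over no MNase, so the shares in those 2 libraries describe its size and are no test. Of the sum of all positive differences in hazard between MNase-rpL27 and no MNase, 69.2% lay at the 6 sites.

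Along 25S rRNA, the hazard with MNase-rpL27 was above the library without MNase in 3 of 17 segments of 200 nucleotides. These were 201 to 400 (2.46 against 0.608), 1401 to 1600 (3.0 against 1.60) and 2001 to 2200 (2.56 against 1.20), which hold 5 of the 6 sites. With the 6 sites left out, MNase-rpL27 was lower in all 17 segments, but this removes positions chosen for their excess with MNase-rpL27 and keeps those high without MNase. With the 16 stops of the exchanged direction left out as well, a setting added after seeing the data, it was lower in 16 of 17, and the summed hazard was 7.01 with MNase-rpL27 and 12.01 without MNase. The gap was widest from 1 to 200, at 0.981 with MNase-rpL27 and 3.29 without MNase. The segment from 2201 to 2400 had the lowest sum in both libraries, 0.156 with MNase-rpL27 and 0.260 without MNase. In the last segment 172 of 196 positions are listed at 0 with MNase-rpL27, and none has a value beyond nucleotide 3246, so the 3’ end of 25S rRNA was not measured.

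**Figure D5:**
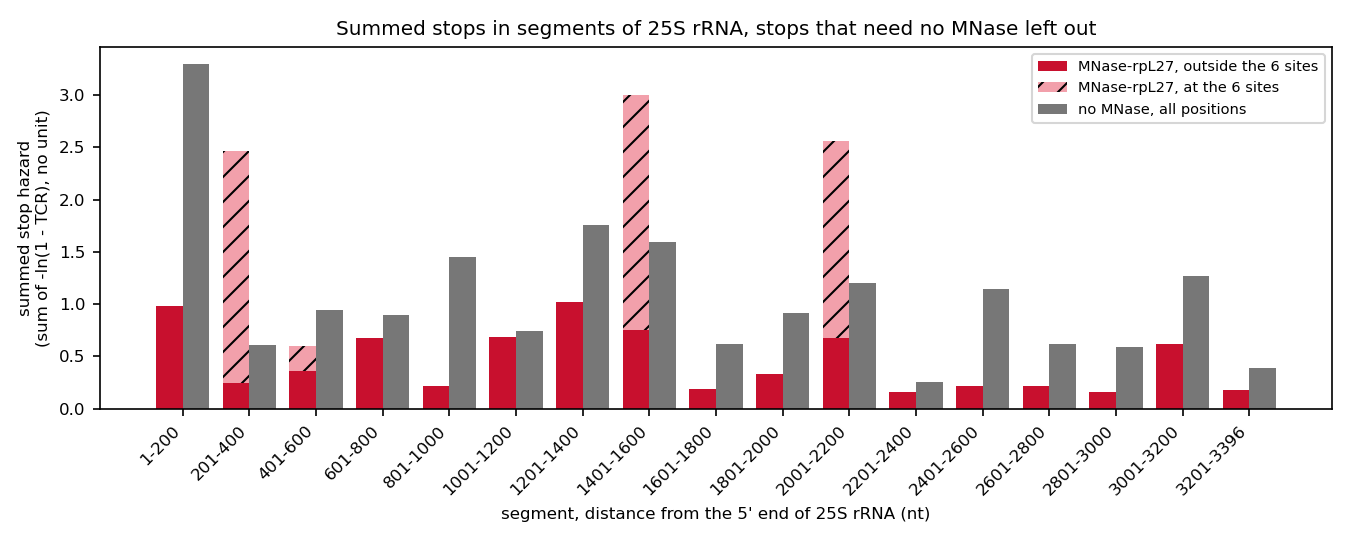
Summed stop hazard, without unit, in 17 consecutive segments of 25S rRNA, with MNase-rpL27 split into the 6 sites (hatched) and all else, beside no MNase. Bars start at 0, and MNase-rpL27 is higher in 3 segments only, each through the hatched part.

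Across the 390 positions above the noise in any of the 4 libraries, the profile of MNase-rpL27 had a Spearman's rho of 0.842 with MNase-rpL35, 0.769 with MNase-rpL5 and 0.221 with no MNase. Pearson's r was 0.816, 0.451 and 0.111. Of the 390 positions, 269 were above the noise without MNase and 145 with MNase-rpL27. Many thus entered through a high value without MNase, which favours a low rho with that library. The order of the libraries is therefore a description, and rho with the other fusions over unselected positions was not computed. Over the 334 positions above the noise with MNase-rpL27 or without MNase, rho was 0.180, and these positions were selected for being high in at least 1 of both. When the stops called by the rules, other than the 49 weaker ones of the exchanged direction, were left out, rho was 0.538 and r was 0.735 over 243 positions. Positions share a template, a priming pattern and a library, and are not independent, so no p is given. MNase-rpL27 was the lower of the 2 libraries at 207 of these 243 positions, a direction favoured by the choice, since more of them were above the noise without MNase and the 49 weaker stops of the exchanged direction stayed in. Over all positions above 0 in both libraries, MNase-rpL27 was higher at 950 and lower at 1117, with a rho of 0.639 and an r of 0.217.

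In 27SB-preLSUs, the earlier precursor purified via Noc3-TAP, MNase-rpL27 had a lower window than in 25S-preLSUs at 5 of the 6 sites and at 9 of the 10 weaker stops. Over all 3373 positions tested it was lower at 1139 (33.8%) and higher at 1994. The called stops were chosen for a high value in 25S-preLSUs, which favours a lower one in 27SB-preLSUs, so the counts are a description. At nucleotide 479 it was 1.72% in 27SB-preLSUs, where the library without MNase is listed at 0. At 2077, MNase-rpL27 is listed at 0 there, as is the library without MNase. The exceptions were the site at A1559, with 43.4% in 27SB-preLSUs against 2.47% without MNase, and the weaker stop at 2024, with 36.6% against 38.9%. At A1559 the other fusions were also high in 27SB-preLSUs, with 44.2% for MNase-rpL5 and 49.4% for MNase-rpL35.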

How the data were processed

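Random primer extension libraries of purified LSU precursors were sequenced in paired ends. Bowtie2, of a version not named in the sources used, placed reads on the rDNA (builds R64 and sacCer3 in the submitters' processing notes). The authors estimated unique cDNA fragments from random barcodes and deposited, per nucleotide, the fraction of fragments covering it that end there, and a noise estimate as a fraction. An equal number of mapped reads was taken per library, and short inserts were removed, so a stop closely upstream of another cut is counted only on molecules not cut there. The deposited table lists no coverage, and the precision of a value was not estimated. Columns were matched to libraries by purification and fusion, the column Wt being the library without MNase, and no column was left unmapped.

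Fractions were turned into percent, and a window is the complement of the chance of no stop at any of its 3 nucleotides. Windows that passed no more than 2 nucleotides apart form a single stop, named by its passing centre of highest TCR. Named in the text are all stops of the 15% rule, the weaker stops (up to 15 by window TCR, all 10 here), the positions the study discusses, the stops that need no nuclease and the 3 highest stops of the exchanged direction. Nucleotides 440, 479, 2432 and those listed with the fusion preference were singled out after their values were seen. The members, lists and rules were chosen with earlier results of these data known. The planned share of bases at the stops was not computed, as no sequence was used. Calling was tested on simulated data. No p-value was computed. Chromosome positions were computed from the RefSeq gene table of R64. Python 3.11.15, numpy 2.4.6, pandas 2.3.3, scipy 1.17.1 and matplotlib 3.10.9 were used.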

Additional observations from a re-analysis of the deposited data

Results flagged for a closer look

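At 5 called stops, MNase-rpL27 lay above the library without MNase in 25S-preLSUs and below it in 27SB-preLSUs. The difference between the purifications was not tested, with 1 library each. At A2089 the window differed by 62.2 percentage points in 25S-preLSUs and by -0.0805 points in 27SB-preLSUs. The values were 2.38 and -0.341 points at nucleotide 64, 6.599 and -0.0531 points at 1223, 4.38 and -2.23 points at 2024, and 2.64 and -0.289 points at 2072. Apart from 2024, both 27SB-preLSU libraries had windows under 1% at these nucleotides. These windows were below the noise of that purification, which was 1.47% to 2.37% there, so the sign of the small differences carries little. The stop at 2072 is also only the edge of the site at U2068.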

How the results depend on the processing

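Each setting was changed alone, and backgrounds other than the library without MNase of 25S-preLSUs and the highest of both such libraries were chosen after seeing the data. The 6 sites numbered 4 to 7 under the other windows, factors, distances, minimums and noise criteria, and U250, U1568, U2068 and A2089 passed in each of them. With noise as the only criterion 10 stops passed, and with MNase-rpL35 as background 1, at U2068. The 10 weaker stops became 16 at a factor of 3, 6 at a factor of 10, 4 at a minimum of 5% and 1 when the nucleotide had to exceed the noise 3 times, G1001. Against MNase-rpL5 there were 2 and against MNase-rpL35 3. The call at 2024 was lost against the higher of both libraries without MNase, which left 9. At 2072 the stop nucleotide alone gives 0, below the 0.0741% without MNase. The 16 stops of the exchanged direction became 8 at a factor of 10 and 4 against MNase-rpL35, and the 49 weaker ones 24, 21 against MNase-rpL35 and 32 with the noise exceeded 3 times. The difference of -4.04 in summed hazard, MNase-rpL27 minus no MNase, was -1.51 against the library without MNase of 27SB-preLSUs. The rho of 0.180 was 0.639 over positions above 0 in both libraries. No paired analysis was possible because each condition has 1 library. Coverage was not taken into account, which limits every value.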

Other observations

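The stops that stood out in the library without MNase of 25S-preLSUs were lower in the library without MNase of 27SB-preLSUs at all 16 positions of the 15% rule, with a median window of 6.70% against 30.5%. They were chosen for a high value in the former, which favours this direction. At nucleotide 983 the values were 8.42% and 56.3%, and at nucleotide 440 they were 27.4% and 39.6%. The share of all tested positions with a lower window in the earlier precursor was not counted for the libraries without MNase. Their summed stop hazard was also lower for the earlier precursor, 15.8 against 18.3. The count of 16 is therefore a description, and was not set apart from this general difference.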
